A study of Mus musculus with 38 samples.

Results

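Gene expression in the tissue of B16 melanoma tumors of the wild-type line at day 14 was compared with control tissue. Membership went by sample title: 5 arrays, numbered 1 to 5, were titled B16-WT tumor microenvironment with day 14, and 7 arrays, numbered 1 to 7, were titled control tissue. These 12 arrays were 12 of the 38 Illumina bead arrays of the series, and 9890 genes were tested on them. All mice of both groups were C57BL/6 of 8 weeks, and the labels give no other allele, agent or treatment for them than the B16 line of the tumors. B16 is a transplantable, pigmented melanoma line that arose in a C57BL/6 mouse, and the wild-type line is named beside the lines B16-shTGFb and B16-shVEGF, whose names usually mean knockdown of Tgfb1 and of Vegfa by a hairpin RNA. The labels do not name the organ of the control tissue, the site of the tumors, the event from which days were counted or how the tissue was cut out. Nor do they say whether each array stands for its own mouse or for pooled tissue, so the scatter behind a p-value may be technical. A p-value here reflects only scatter between arrays, which for each gene was pooled over all groups of the series. The fit thus takes scatter as equal between groups. For genes such as Krt10 and Krt14 tumor arrays scattered far more than controls, so counts by p-value rest on an assumption that such genes break.

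A tumor growing in or under the skin is a mixture. Melanoma cells make melanin in melanosomes under the transcription factors Mitf and Sox10 and divide, while the host supplies collagen-making fibroblasts, blood vessels, macrophages and lymphocytes, and a piece of surrounding tissue may bring epidermis, hair follicles, fat and the thin skeletal muscle sheet of mouse skin. In RNA of whole tissue, fewer cells of a type and less RNA per cell cannot be told apart.

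The 5 tumor arrays did not form a group that was alike. On array 1 most genes lay inside the range of the 7 controls, with 5.39% of genes below the lowest and 3.19% above the highest control. On arrays 2 and 5, 33.8% and 33.5% of genes lay below the lowest control and 37.7% and 38.4% above the highest. Array 3 had 30.6% below and 24.6% above, and array 4 had 16% below and 16.1% above. The counts of list genes by array given below are to be read beside these shares. Across genes, Spearman's rho with the median control profile was 0.99 for array 1, 0.935 for array 4, 0.866 for array 3, and 0.642 and 0.641 for arrays 2 and 5, which correlated at 0.962 with each other. Genes are not independent replicates, so these correlations only describe the arrays. Control arrays also differed among themselves. Set against the other 6 controls, control array 6 had 26.9% of genes below and 33.1% above, and control array 1 had 22.4% below and 18.3% above. The nearest profile to tumor array 3 was control array 6, at 0.929. Arrays 2 and 5 also had the fewest detected probes of these 12 arrays, 17669 and 16519 at a detection p under 0.05, against 20590 to 22304 on the control arrays. The part of this in the results was not tested.

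**Figure D1:**
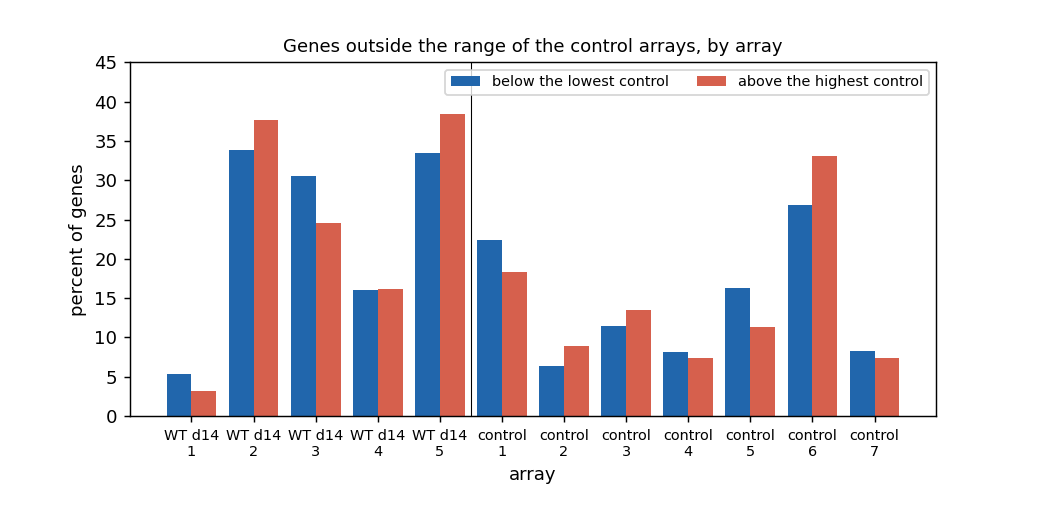
Percent of 9890 genes (y axis) below the lowest and above the highest control array, for each array (x axis). WT day 14 arrays are set against all 7 controls and each control against the other 6. WT day 14 arrays 2 and 5 stand highest, and array 1 is lower than every control. A range of 7 arrays is wider than a range of 6, so shares of tumor and control arrays are not fully comparable.

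No gene was called between wild-type day 14 and control tissue. At an adjusted p under 0.05 (limma, Benjamini-Hochberg over 9890 genes), 0 genes passed with all 5 arrays (0%), with a smallest adjusted p of 0.143, and 0 passed without arrays 2 and 5, with a smallest adjusted p of 1. At an unadjusted p under 0.05, 819 genes had a higher mean (8.28%) and 1665 a lower mean (16.8%) with all arrays. Without arrays 2 and 5 these counts were 23 (0.233%) and 48 (0.485%). The median difference over all genes was 0.04 with all arrays and -0.04 without these 2, on the log2 scale. The calls turned on single tumor arrays. With array 1 left out, 1443 genes were called (14.6%), 355 higher and 1088 lower, and with array 4 left out 1284 were called (13%), 267 higher and 1017 lower. Of these, 971 genes were called in both. Leaving out any of the other 3 tumor arrays or any control gave 0 calls. The counts of list genes given below are to be read beside these shares of all genes. Because 0 genes were called with all arrays, differences below are fitted values with their standard errors (SE), for 5 against 7 arrays first and for 3 against 7 without arrays 2 and 5 second, and every one of them missed the threshold.

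Levels are log2 intensities after background correction, with a floor set by an offset of 16, so that a probe at background lies a little above 4. A value can be set against the same gene on another array, not against another gene.

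**Figure D2:**
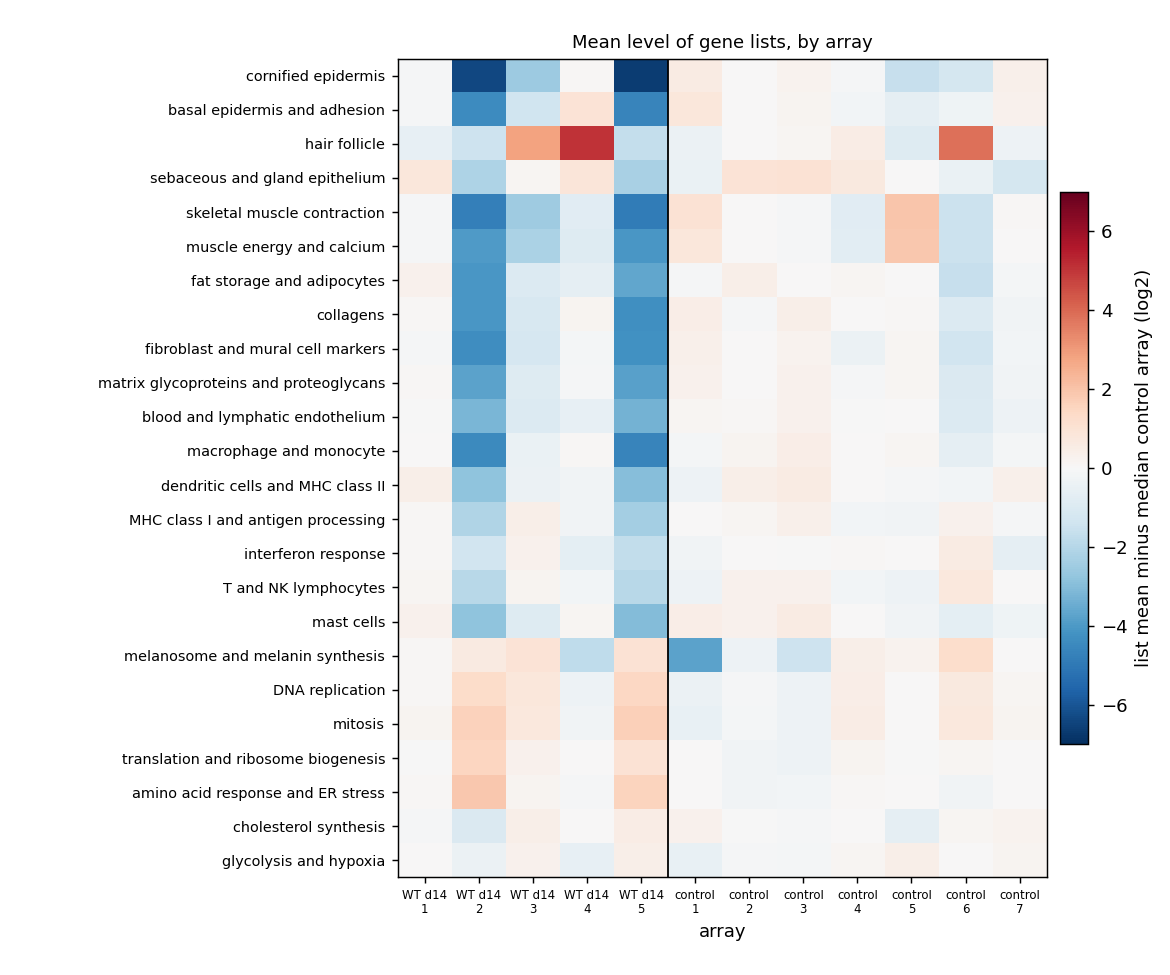
Mean log2 level of 24 gene lists (rows) on each WT day 14 and control array (columns), minus the level of the median control array. Blue is lower and red higher; WT day 14 arrays 2 and 5 are lower for the 17 host tissue lists and higher for replication, mitosis, translation and amino acid response.

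Genes of the outer skin differed widely between tumor arrays. Of 45 measured genes of the cornified epidermis, the dead outer layer that keeps water in, 45 lay below every control on array 2 and 45 on array 5. The median distance to the control median was -7.04 and -7.11 there, with 8 and 4 of 45 genes detected, so that most values sat at the floor. On array 3, 37 of 45 lay below every control (median -2.49), while on array 1 and array 4 none did. Krt10, the keratin of cells leaving the basal layer, lay at 14.41, 7.01, 13.53, 14.59 and 5.15 on tumor arrays 1 to 5, against 14.22 to 14.49 (median 14.44) on the controls. Arrays 1 and 4 were within or just above the control range and the other 3 tumor arrays were below it. Krt1, the partner of Krt10 in the same filaments, lay at 13.31, 4.79, 8.27, 11.48 and 4.70 on tumor arrays 1 to 5, against 9.16 to 13.76 (median 13.46) on the controls. Dmkn, a secreted protein of the upper epidermis, lay at 14.63, 4.86, 12.38, 14.24 and 4.40 on tumor arrays 1 to 5, against 13.55 to 14.58 (median 14.47) on the controls. The fitted difference of Dmkn was -4.16 (SE 1.43) with all arrays and -0.52 (SE 1.23) without arrays 2 and 5. Over the list, 36 of 45 genes had a lower mean at an unadjusted p under 0.05, with a median difference of -3.13, beside 16.8% of all genes and a median of 0.04. Without the 2 arrays the count was 0 and the median -0.59. With array 1 left out, 31 of 45 were called, beside 14.6% of all genes.

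The basal epidermis, the dividing layer that holds onto the basement membrane, followed the same arrays except on array 4. Of 27 measured genes, 23 lay below every control on array 2 and 23 on array 5, 19 did on array 3, and on array 4 none did while 12 lay above every control. Krt14, the main keratin of basal cells, lay at 14.29, 6.42, 13.78, 14.63 and 4.65 on tumor arrays 1 to 5, against 14.18 to 14.50 (median 14.36) on the controls. Krt5, its filament partner, lay at 11.93, 4.44, 10.23, 12.37 and 4.37 on tumor arrays 1 to 5, against 10.43 to 13 (median 11.62) on the controls. Trp63, the transcription factor that keeps epithelial progenitors, lay at 11.40, 4.61, 8.61, 12.16 and 4.61 on tumor arrays 1 to 5, against 10.70 to 12.45 (median 11.64) on the controls. Array 4 was above every control for Krt14 and inside the control range for Krt5 and Trp63, and arrays 2 and 5 were the lowest of all 12. Lamb3, a chain of the laminin that anchors the epidermis, differed by -2.73 (SE 0.93) with all arrays and -0.69 (SE 0.90) without arrays 2 and 5.

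Hair follicle genes split the tumor arrays another way. Of 12 measured genes, 12 lay above every control on array 4, with a median distance of 5.46 to the control median. Krt71, a keratin of the inner root sheath that wraps the growing hair, lay at 4.49, 6.31, 13.56, 14.64 and 4.43 on tumor arrays 1 to 5, against 4.39 to 14.35 (median 5.43) on the controls. Krt27, another root sheath keratin, lay at 4.70, 6.75, 13.97, 14.48 and 4.62 on tumor arrays 1 to 5, against 4.80 to 14.18 (median 6.33) on the controls. Padi1, an enzyme that converts arginine to citrulline in hair and skin proteins, lay at 5.65, 5.85, 9.60, 12.34 and 6.11 on tumor arrays 1 to 5, against 4.47 to 11.01 (median 5.37) on the controls. These genes were high on tumor arrays 3 and 4 and on control array 6, and well below that on the other tumor arrays and controls, though Krt27 was at 9.14 on control array 4. Across the list the mean level was 6.37, 5.50, 9.75, 11.96 and 5.24 on tumor arrays 1 to 5, against 6.00 to 10.79 on the controls, of which control array 6 was the highest. The median difference of the list was 0.48 with all arrays and 2.27 without arrays 2 and 5, and it was -0.50 with array 4 left out and -0.04 with array 3 left out. Gata3, which directs root sheath cells, and Lgr5, a receptor of hair follicle stem cells, did not follow the keratins. Gata3 lay at 10.35, 6.41, 9.40, 12.26 and 5.11 on tumor arrays 1 to 5, against 9.92 to 11.07 (median 10.93) on the controls. Lgr5 lay at 7.79, 4.48, 5.94, 8.45 and 4.58 on tumor arrays 1 to 5, against 6.99 to 8.21 (median 7.42) on the controls. Both had array 4 above every control and array 3 below every control.

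Apart from the hair follicle genes, skeletal muscle genes had the largest median distance from the controls once arrays 2 and 5 were left out. Of 34 measured genes of contraction, 31 lay below every control on array 2, 32 on array 5 and 30 on array 3, 5 did on array 4 and 0 on array 1. Actn2, which ties thin filaments to the Z disc, lay at 11.23, 4.66, 8.01, 10.36 and 4.83 on tumor arrays 1 to 5, against 10.38 to 13.60 (median 11.52) on the controls. Ttn, the giant spring of the sarcomere, lay at 12.51, 4.67, 8.32, 11.27 and 4.63 on tumor arrays 1 to 5, against 10.17 to 14.10 (median 12.66) on the controls. Myl1, a myosin light chain of fast fibers, lay at 14.49, 5.76, 12.20, 13.92 and 4.71 on tumor arrays 1 to 5, against 13.31 to 14.53 (median 14.45) on the controls. For all 3 genes arrays 2 and 5 were at or near background, and array 3 was below every control and above arrays 2 and 5. The fitted difference of Actn2 was -3.97 (SE 1.11) with all arrays and -1.92 (SE 1.16) without arrays 2 and 5, the smallest unadjusted p of the list with all arrays. Tcap, the cap of titin at the Z disc, differed by -3.85 (SE 1.23) and -1.34 (SE 1.23). Csrp3, a Z disc protein, differed by -3.52 (SE 1.12) and -1.41 (SE 1.16). Over the list, 28 of 34 genes had a lower mean at an unadjusted p under 0.05 (median -3.01), against 1 of 34 without arrays 2 and 5 (median -1.33), where the share over all genes was 0.485%. With array 1 left out 25 of 34 were called, and with array 4 left out 18, beside 14.6% and 13% of all genes.

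Genes that feed the muscle fiber followed the contractile genes. Of 32 measured genes of muscle energy and calcium handling, 28 had a lower mean at an unadjusted p under 0.05 with all arrays (median -2.21). The share over all genes was 16.8%. Without arrays 2 and 5 the count was 0 (median -1.19). Ckm, the muscle creatine kinase that buffers ATP, lay at 12.74, 4.38, 9.68, 11.46 and 4.51 on tumor arrays 1 to 5, against 10.53 to 14.31 (median 12.35) on the controls. Pgam2, the muscle form of a glycolytic mutase, lay at 10.38, 4.61, 8.01, 9.78 and 5.73 on tumor arrays 1 to 5, against 9.06 to 12.84 (median 10.94) on the controls. Fhl1, a LIM protein of muscle, lay at 12.83, 4.49, 9.61, 12.36 and 4.35 on tumor arrays 1 to 5, against 11.45 to 14.16 (median 13.23) on the controls. In each case array 1 lay inside the control range. Nrap, which anchors actin at the ends of fibers, differed by -2.71 (SE 0.76) with all arrays and -1.16 (SE 0.76) without arrays 2 and 5. Myf6, a transcription factor of mature fibers, was detected on 2 of 5 tumor arrays and 7 of 7 controls and lay at 8.06, 4.57, 4.65, 6.58 and 4.48 on tumor arrays 1 to 5, against 6.16 to 10.05 (median 7.91) on the controls. The controls had a wide spread of their own in the level of muscle genes. The mean of the contraction list was 10.24, 5.51, 7.85, 9.50 and 5.40 on tumor arrays 1 to 5, against 12.24 on control array 5 and 8.82 on control array 6.

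The promoters of Acta1 (skeletal alpha-actin) and Ckm are printed because these 2 muscle markers had the same order of tumor arrays and both hold the E-box CAGCTG, a sequence that myogenic factors such as Myf6 can bind. Acta1 lay at 14.01, 4.46, 12.24, 13.59 and 5.46 on tumor arrays 1 to 5, against 13.09 to 14.40 (median 14.18) on the controls. Both sequences run from 250 bases before to 50 bases after the annotated start, on the strand of the gene, from RefSeq on GRCm38.p6, with the E-box in capitals. The window of Acta1 is chr8:123894726-123895025 on the minus strand and that of Ckm is chr7:19410844-19411143 on the plus strand.
Acta1: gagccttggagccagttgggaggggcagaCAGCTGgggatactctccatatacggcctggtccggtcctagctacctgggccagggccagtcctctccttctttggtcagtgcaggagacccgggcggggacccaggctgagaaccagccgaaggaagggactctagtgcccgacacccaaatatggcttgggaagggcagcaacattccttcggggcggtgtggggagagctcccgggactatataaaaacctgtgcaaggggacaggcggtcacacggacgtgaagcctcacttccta
Ckm: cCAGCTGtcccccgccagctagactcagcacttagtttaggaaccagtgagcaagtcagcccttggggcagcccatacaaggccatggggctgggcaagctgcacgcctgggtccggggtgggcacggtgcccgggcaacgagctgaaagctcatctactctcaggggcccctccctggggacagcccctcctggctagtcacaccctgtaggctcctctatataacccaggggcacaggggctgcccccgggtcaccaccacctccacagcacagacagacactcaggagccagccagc
The E-box began 221 bases before the start in Acta1 and 249 bases before it in Ckm. The muscle contraction list had 23 of 34 genes in the promoter table, with 29 promoters, of which 9 (31%) held CAGCTG, which reads the same on both strands. Of all 32851 promoters of that length, 16.3% held it. A match of letters describes the window and does not show a site in use.

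**Figure D3:**
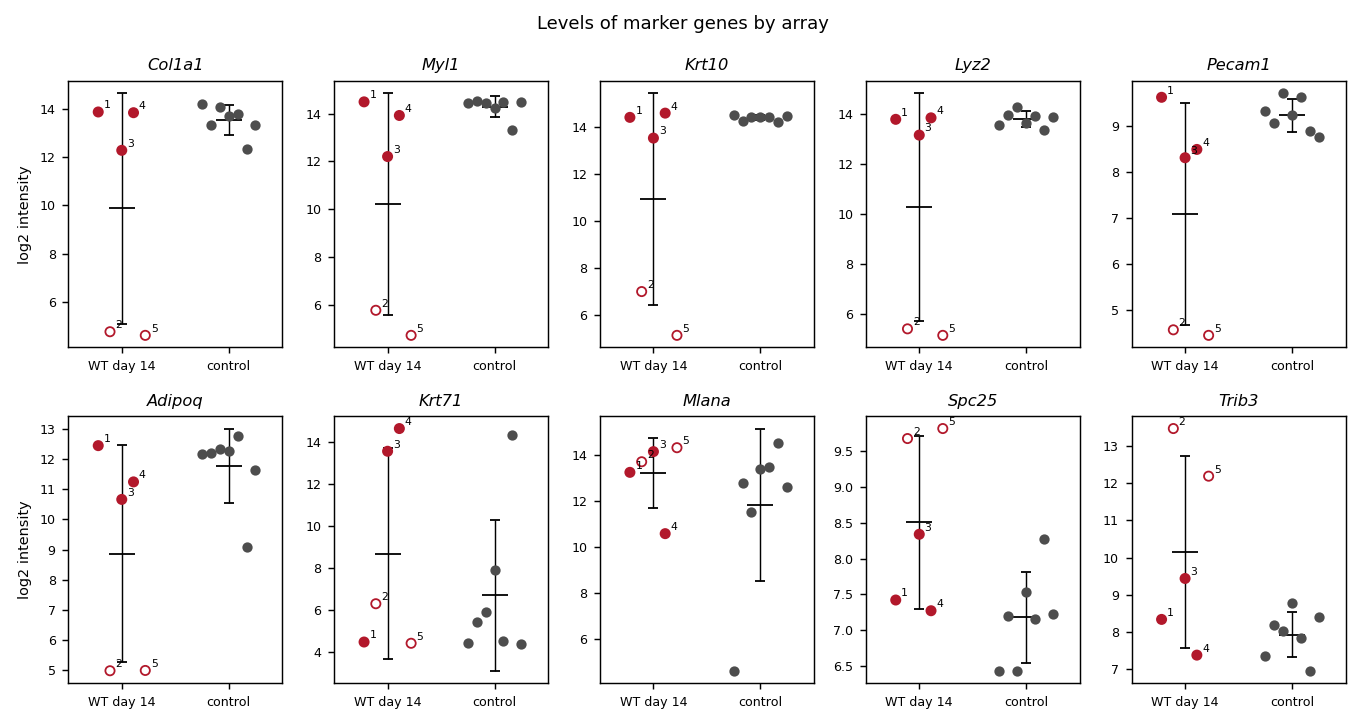
Log2 intensity (y axis) of 10 marker genes on the 5 WT day 14 arrays (red, numbered; open circles are arrays 2 and 5) and the 7 control arrays (gray); bars are the mean and SD. Arrays 2 and 5 are lowest for Col1a1, Myl1, Krt10, Lyz2, Pecam1 and Adipoq and highest for Spc25 and Trib3, while Krt71 is high on arrays 3 and 4 and on 1 control.

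Fat genes lay low on arrays 2 and 5 as well. Of 24 measured genes of fat storage, 21 lay below every control on array 2 and 19 on array 5, 3 on array 3, 1 on array 4 and 0 on array 1, where 4 lay above every control. Lpl, the lipase that frees fatty acids from blood lipoproteins, lay at 14.12, 4.63, 11.27, 13.38 and 4.62 on tumor arrays 1 to 5, against 11.81 to 14.23 (median 13.87) on the controls. Pparg, the regulator of fat cell formation, lay at 10.49, 4.85, 8.78, 9.24 and 5.37 on tumor arrays 1 to 5, against 8.65 to 10.71 (median 10.34) on the controls. Adipoq, a hormone of fat cells, lay at 12.44, 4.99, 10.66, 11.24 and 5.00 on tumor arrays 1 to 5, against 9.08 to 12.77 (median 12.18) on the controls. Control array 6 was the lowest control for all 3 genes. The list had 13 of 24 genes lower at an unadjusted p under 0.05 (median -1.53), beside 16.8% of all genes, and 0 without arrays 2 and 5 (median -0.33).

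Most fibroblast and collagen genes were not detected on the same 2 arrays, where 8 and 6 of 30 fibroblast and mural cell markers and 7 and 5 of 19 collagens were detected on arrays 2 and 5. Of 19 measured collagen genes, 18 lay below every control on array 2 and 19 on array 5, 11 did on array 3 and none on arrays 1 and 4. Col1a1, a chain of the main fibrillar collagen, lay at 13.87, 4.76, 12.28, 13.84 and 4.61 on tumor arrays 1 to 5, against 12.35 to 14.20 (median 13.71) on the controls. Col3a1, the collagen of loose connective tissue, lay at 10.37, 4.85, 8.23, 11.37 and 4.47 on tumor arrays 1 to 5, against 8.71 to 11.46 (median 10.79) on the controls. Dcn, a small proteoglycan that coats collagen, lay at 14.16, 4.67, 12.99, 14.11 and 4.87 on tumor arrays 1 to 5, against 13.10 to 14.37 (median 14.28) on the controls. On arrays 1 and 4 these genes were within or near the control range. Pdgfra, the growth factor receptor that marks fibroblasts, differed by -2.31 (SE 0.71) with all arrays and -0.63 (SE 0.66) without arrays 2 and 5. Lum, another small proteoglycan, differed by -3.82 (SE 1.25) and -0.75 (SE 1.12). Over the collagens, 15 of 19 had a lower mean at an unadjusted p under 0.05 (median -1.66), beside 16.8% of all genes, and 0 without the 2 arrays (median -0.19). For 30 markers of fibroblasts and of the cells around vessels the counts were 22 (median -1.99) and 0 (median -0.25).

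The enzymes and glycoproteins that shape the matrix included members that stayed well above background on arrays 2 and 5, where 21 and 20 of 42 matrix glycoproteins and proteoglycans were detected. Thbs2, a matrix protein that slows vessel growth, lay at 11.78, 6.5, 10.02, 11 and 8.17 on tumor arrays 1 to 5, against 10.25 to 12.84 (median 11.61) on the controls. Mmp2, a gelatinase, lay at 13.56, 7.68, 11.75, 13.03 and 7.87 on tumor arrays 1 to 5, against 11.84 to 13.87 (median 13.05) on the controls. Loxl1, an enzyme of elastic fibers, lay at 12.32, 4.43, 11.45, 12.07 and 4.36 on tumor arrays 1 to 5, against 10.82 to 13.03 (median 12.44) on the controls. Only Loxl1 of these 3 was near background on arrays 2 and 5. Myh11, the myosin of smooth muscle, differed by -2.31 (SE 0.72) with all arrays and -0.80 (SE 0.72) without arrays 2 and 5. Of 42 matrix glycoproteins and proteoglycans, 29 had a lower mean at an unadjusted p under 0.05 (median -1.65), and 0 without the 2 arrays (median -0.19), where 1 had a higher mean.

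Macrophage genes were mostly not detected on arrays 2 and 5. On array 3, 16 of 41 lay below and 4 above every control, beside 30.6% and 24.6% of all genes. On array 4, 4 lay below and 7 above, and on array 1 none lay outside the control range. Of 41 measured genes of macrophages and monocytes, 10 were detected on array 2 and 5 on array 5, against 41, 38 and 40 on arrays 1, 3 and 4 and 39 to 41 on the controls. Lyz2, a lysozyme of myeloid cells, lay at 13.79, 5.42, 13.16, 13.85 and 5.16 on tumor arrays 1 to 5, against 13.37 to 14.29 (median 13.89) on the controls. Laptm5, a lysosomal protein of blood cells, lay at 13.17, 5.85, 12.53, 12.94 and 4.55 on tumor arrays 1 to 5, against 12.64 to 13.89 (median 13.28) on the controls. Lyz1, the other lysozyme, lay at 14.18, 7.52, 13.48, 14.19 and 4.87 on tumor arrays 1 to 5, against 13.97 to 14.45 (median 14.33) on the controls; the 2 lysozyme genes are near copies, and their probes may share signal. Ccr2, the receptor that brings monocytes out of blood, was the macrophage gene with the smallest unadjusted p. It lay at 6.22, 4.38, 4.62, 5.71 and 4.38 on tumor arrays 1 to 5, against 5.81 to 7.12 (median 6.15) on the controls, and was detected on 2 of 5 tumor arrays and 7 of 7 controls. Its difference was -1.29 (SE 0.35) with all arrays and -0.83 (SE 0.40) without arrays 2 and 5, where array 3 was also low. Over the list, 33 of 41 genes had a lower and 1 a higher mean at an unadjusted p under 0.05 (median -2.11), and without the 2 arrays 1 had a lower and 1 a higher mean (median -0.20).

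Antigen presentation and lymphocyte genes showed the same split. Cd74, the chaperone of MHC class II molecules, lay at 14.24, 8.02, 13.52, 13.76 and 5.80 on tumor arrays 1 to 5, against 13.54 to 14.27 (median 14.04) on the controls. H2-Aa, a chain of MHC class II, lay at 10.93, 4.69, 9.89, 11.51 and 4.48 on tumor arrays 1 to 5, against 10.32 to 11.83 (median 11.22) on the controls. Cd86, which gives T cells their second signal, lay at 9.67, 4.35, 7.23, 8.43 and 4.37 on tumor arrays 1 to 5, against 8.57 to 9.86 (median 9.29) on the controls. Cd86 was below every control on arrays 3 and 4 too, while H2-Aa was below every control on array 3 and inside the range on array 4. Of 26 genes of dendritic cells and MHC class II, 15 had a lower mean at an unadjusted p under 0.05 (median -1.22), beside 16.8% of all genes. Without arrays 2 and 5 the count was 0 (median -0.16). Cd3g, a chain of the T cell receptor complex, lay at 8.12, 4.36, 8.85, 8.53 and 4.49 on tumor arrays 1 to 5, against 7.75 to 9.82 (median 8.56) on the controls. Klrd1, a receptor of natural killer cells, lay at 7.53, 4.39, 6.71, 7.39 and 4.58 on tumor arrays 1 to 5, against 6.88 to 8.20 (median 7.54) on the controls. For 31 T and natural killer cell genes the median was -0.77 with all arrays, with 13 lower at an unadjusted p under 0.05, and 0.05 with 0 lower without arrays 2 and 5. Mast cells, which store proteases in granules, had 8 measured genes, with Cpa3 differing by -2.45 (SE 0.89) and -0.37 (SE 0.83) and Cma1 by -2.01 (SE 0.77) and -0.34 (SE 0.75). The list median was -1.07 and -0.24. Il1r2, a decoy receptor for interleukin 1, differed by -2.40 (SE 0.87) and -0.91 (SE 0.92), and the 22 genes of neutrophils and inflammation had a median of -0.44 with all arrays and 0.22 without arrays 2 and 5.

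Interferon response genes were also low on array 4. Of 40 measured genes, which cells switch on against viruses and under T cell cytokines, 25 lay below every control on array 2, 29 on array 5 and 21 on array 4, but 5 on array 3 and 1 on array 1. Irf7, the transcription factor that amplifies the response, lay at 7.46, 4.55, 7.35, 6.87 and 4.5 on tumor arrays 1 to 5, against 6.45 to 8.30 (median 7.78) on the controls. Oas2, a sensor of double-stranded RNA, lay at 9.14, 5.92, 8.21, 8.28 and 4.5 on tumor arrays 1 to 5, against 8.38 to 9.38 (median 9.12) on the controls. Oas2 was below every control on arrays 2 to 5, and Irf7 on arrays 2 and 5. The list had 12 of 40 genes lower at an unadjusted p under 0.05 (median -0.50) and 0 without arrays 2 and 5 (median -0.14). MHC class I genes had a median distance to the controls of 0.50 on array 3 and -0.28 on array 4, and of -1.77 and -2.30 on arrays 2 and 5.

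Vessel genes were low on arrays 2 and 5, and their median distance to the controls was -0.53 on array 3 and -0.51 on array 4. Of 31 genes of blood and lymphatic endothelium, 27 lay below every control on array 2, 28 on array 5, 9 on array 3, 8 on array 4 and 0 on array 1. Beside these counts stood 33.8%, 33.5%, 30.6%, 16% and 5.39% of all genes, so the count on array 3 was near the share of all genes. Vwf, the clotting protein stored in endothelium, lay at 9.48, 4.56, 8.28, 8.66 and 4.58 on tumor arrays 1 to 5, against 8.19 to 10.01 (median 9.50) on the controls. Pecam1, the adhesion molecule of endothelial junctions, lay at 9.62, 4.58, 8.31, 8.49 and 4.46 on tumor arrays 1 to 5, against 8.75 to 9.71 (median 9.23) on the controls. Mmrn2, a matrix protein of vessel walls, lay at 9.25, 4.42, 8.83, 8.34 and 4.53 on tumor arrays 1 to 5, against 8.59 to 9.76 (median 9.19) on the controls. Pecam1 was below every control on arrays 2 to 5, and the other 2 genes were inside the control range on array 3. The list had 24 of 31 genes lower and 1 higher at an unadjusted p under 0.05 (median -1.56), against 0 without arrays 2 and 5 (median -0.29).

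Vegfa and Tgfb1, the genes that the hairpin lines of the series are named for, did not separate the groups. Vegfa, the growth factor that drives vessel growth, lay at 9.71, 11.41, 10.13, 9.27 and 10.56 on tumor arrays 1 to 5, against 9.01 to 10.69 (median 10.13) on the controls. Array 2 was above every control and the other 4 tumor arrays were inside the range. The difference was 0.20 (SE 0.33) with all arrays and -0.31 (SE 0.35) without arrays 2 and 5. Tgfb1, a cytokine that restrains lymphocytes and stimulates matrix, lay at 9, 8.19, 10.10, 8.83 and 8.20 on tumor arrays 1 to 5, against 8.22 to 9.14 (median 9) on the controls. Arrays 2 and 5 were just below the lowest control and array 3 was above the highest. Its difference was 0.02 (SE 0.42) with all arrays and 0.46 (SE 0.49) without arrays 2 and 5. The 95% interval of the Tgfb1 difference with all arrays ran from -0.84 to 0.87.

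Several other ligands and receptors of these pathways lay low on arrays 2 and 5, while Acvrl1 lay high there. With all arrays, 14 of 21 VEGF genes and 21 of 31 TGF-beta genes had a negative difference, and 7 and 10 a positive one. Pdgfb, which recruits the cells around vessels, lay at 9.63, 6.58, 8.99, 8.50 and 4.89 on tumor arrays 1 to 5, against 8.89 to 9.90 (median 9.34) on the controls. Nrp1, a co-receptor for Vegfa, lay at 11.10, 9.10, 10.62, 10.39 and 9.34 on tumor arrays 1 to 5, against 10.50 to 11.37 (median 11.12) on the controls. Vegfd, a ligand for lymphatic vessels, differed by -2.27 (SE 0.74) with all arrays and -0.35 (SE 0.63) without arrays 2 and 5. Of 21 genes of VEGF and related factors, 10 had a lower mean at an unadjusted p under 0.05 (median -0.83), and 1 without arrays 2 and 5 (median -0.30). Among TGF-beta genes the members differed in direction. Tgfbi, a matrix protein named for its induction by TGF-beta, lay at 12.35, 5.39, 10.93, 12.30 and 5.98 on tumor arrays 1 to 5, against 11.24 to 13.45 (median 12.70) on the controls. Tgfbr2, the type II receptor, lay at 12.84, 10.27, 11.70, 12.61 and 10.62 on tumor arrays 1 to 5, against 12.07 to 13.19 (median 12.93) on the controls. Acvrl1, a type I receptor of the family, was higher on arrays 2, 3 and 5, at 6.57, 7.95, 7.74, 6.00 and 8.53 on tumor arrays 1 to 5, against 5.47 to 6.76 (median 6.10) on the controls. Of 31 genes, 3 had a higher and 10 a lower mean at an unadjusted p under 0.05 with all arrays (median -0.16). Beside this stood 8.28% and 16.8% of all genes, so the count of higher genes was near the share of all genes. Without arrays 2 and 5 the count was 0 in either direction (median -0.08).

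Pigment cell genes did not separate tumor from control tissue, and the control tissue held them at high level. Mlana, a melanosome protein, lay at 13.24, 13.70, 14.14, 10.58 and 14.31 on tumor arrays 1 to 5, against 4.63 to 14.50 (median 12.76) on the controls. Tyr, the enzyme that starts melanin synthesis, lay at 8.55, 9.40, 9.08, 5.19 and 10 on tumor arrays 1 to 5, against 4.39 to 10.71 (median 8.59) on the controls. Sox10, which specifies the melanocyte lineage, lay at 11.92, 12.75, 13.09, 8.72 and 13.02 on tumor arrays 1 to 5, against 7.64 to 12.64 (median 11.82) on the controls. The tumor array with the lowest value of each gene was array 4, and the control with the lowest was control array 1. Mlana lay at 11.50 to 14.50 on the other 6 controls, so the defining marker of pigment cells did not tell most controls from tumors, and the labels do not give a source for it. Dct and Tyrp1, enzymes of the same pathway, differed by 0.57 (SE 1.21) and 0.98 (SE 1.48) with all arrays, and Pmel, the fiber protein of melanosomes, by 1.32 (SE 1.59). Over 19 measured melanosome genes the list mean was 10.74, 11.28, 11.59, 8.84 and 11.65 on tumor arrays 1 to 5, against 6.91 to 11.87 on the controls. The list median was 0.76 with 0 of 19 at an unadjusted p under 0.05, and 0.33 with 0 of 19 without arrays 2 and 5.

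Of 11 melanocyte regulators, 4, 4 and 5 lay above every control and 3, 2 and 3 below on arrays 2, 3 and 5. Of 19 melanosome genes 5, 6 and 6 lay above there, beside 37.7%, 24.6% and 38.4% of all genes. The counts above on arrays 2 and 5 were thus near the share of all genes or below it. On array 4, 4 regulators lay above and 2 below, beside 16.1% and 16% of all genes. No melanosome gene lay above every control on array 4. Mitf, the master regulator of pigment genes, lay at 6.52, 8.91, 8.27, 5.50 and 8.65 on tumor arrays 1 to 5, against 4.61 to 7.46 (median 6.52) on the controls. Mlph, which links melanosomes to their motor, lay at 7.01, 8.87, 8.54, 5.50 and 9.23 on tumor arrays 1 to 5, against 4.74 to 7.54 (median 6.80) on the controls. Rab38, which guides melanin enzymes to melanosomes, lay at 11.74, 13.56, 12.55, 9.55 and 13.26 on tumor arrays 1 to 5, against 9.83 to 12.21 (median 11.61) on the controls. Arrays 2, 3 and 5 were above every control for all 3 genes. Sox5, a partner of Sox10, differed by 1.04 (SE 0.47) with all arrays and 0.58 (SE 0.54) without arrays 2 and 5. Ednrb, the endothelin receptor that melanoblasts need and that other cells carry, lay at 11.10, 4.85, 9.09, 11.91 and 4.49 on tumor arrays 1 to 5, against 10.50 to 11.67 (median 11.32) on the controls, with the stromal genes and not with the pigment genes on arrays 2 and 5.

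The promoter of Tyr is printed because Tyr carries the longer E-box TCATGTG that Mitf is known to bind. It runs from 250 bases before to 50 after the annotated start, chr7:87493463-87493762 on the minus strand of GRCm38.p6 (RefSeq), with the box in capitals.
Tyr: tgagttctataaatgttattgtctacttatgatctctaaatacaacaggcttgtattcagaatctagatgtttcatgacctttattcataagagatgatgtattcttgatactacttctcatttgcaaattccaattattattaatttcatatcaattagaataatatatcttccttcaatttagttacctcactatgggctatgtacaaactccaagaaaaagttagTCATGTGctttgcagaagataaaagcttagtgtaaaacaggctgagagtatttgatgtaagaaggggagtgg
The box began 22 bases before the start. Both strands were searched. Of 19 melanosome genes 12 were in the promoter table, with 14 promoters, and 4 of these (28.6%) held TCATGTG, against 3.77% of all 32851 promoters.

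Genes of cell division lay high on arrays 2, 3 and 5. Of 37 measured genes of DNA replication, 33 lay above every control on array 2, 34 on array 5 and 22 on array 3, against 0 on array 1 and 1 on array 4, where 15 lay below. Of 39 mitosis genes the counts above were 32, 36, 18, 0 and 1 for arrays 2, 5, 3, 1 and 4. Pcna, the clamp that holds DNA polymerase, lay at 5.66, 7.41, 5.44, 6.18 and 7.15 on tumor arrays 1 to 5, against 4.83 to 6.12 (median 5.15) on the controls. Rfc4, a subunit of the clamp loader, lay at 6.98, 9.90, 7.87, 7.5 and 9.94 on tumor arrays 1 to 5, against 6.91 to 7.79 (median 7.37) on the controls. Spc25, a kinetochore protein, lay at 7.42, 9.68, 8.34, 7.27 and 9.82 on tumor arrays 1 to 5, against 6.43 to 8.27 (median 7.20) on the controls. Arrays 2 and 5 were above every control for all 3 genes, array 3 was above for Rfc4 and Spc25, and array 1 was inside the range.

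Other division genes were also high on arrays 2 and 5. Rpa3, which covers single-stranded DNA, lay at 10.52, 12.41, 11.55, 10.36 and 12.42 on tumor arrays 1 to 5, against 9.70 to 11.23 (median 10.34) on the controls. Spc24, a partner of Spc25, lay at 7.94, 9.20, 8.00, 8.36 and 8.91 on tumor arrays 1 to 5, against 7.27 to 8.06 (median 7.66) on the controls. Cenpp, a centromere protein, lay at 7.14, 9.37, 8.23, 7.25 and 9.19 on tumor arrays 1 to 5, against 6.35 to 7.78 (median 7.06) on the controls. Spc24 was above every control on arrays 2, 4 and 5, Rpa3 and Cenpp on arrays 2, 3 and 5. H2az1, a histone variant, differed by 0.69 (SE 0.27) with all arrays and 0.39 (SE 0.31) without arrays 2 and 5. Tmpo, a protein of the nuclear envelope, differed by 0.92 (SE 0.35) and 0.23 (SE 0.36). With all arrays, 9 of 37 replication genes and 9 of 39 mitosis genes had a higher mean at an unadjusted p under 0.05 (medians 0.65 and 0.70), beside 8.28% of all genes. Without arrays 2 and 5 the counts were 0 and 0 (medians 0.12 and 0.17).

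The promoter of Spc25 is printed because mitosis genes lay high on the same arrays and their promoters often hold the CCAAT box and TTTGAA, the core of the cell cycle homology region. It runs from 250 bases before to 50 after the annotated start, chr2:69206164-69206463 on the minus strand of GRCm38.p6 (RefSeq), with both motifs in capitals.
Spc25: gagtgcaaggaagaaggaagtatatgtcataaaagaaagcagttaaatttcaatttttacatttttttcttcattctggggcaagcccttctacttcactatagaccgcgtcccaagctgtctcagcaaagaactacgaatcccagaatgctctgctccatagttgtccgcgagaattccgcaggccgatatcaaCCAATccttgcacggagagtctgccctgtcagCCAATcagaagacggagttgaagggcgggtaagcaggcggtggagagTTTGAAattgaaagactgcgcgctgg
CCAAT began 55 and 23 bases before the start and TTTGAA at base 25 after it, and they did not overlap. On both strands, 28 of 37 promoters of 32 mitosis genes (75.7%) held CCAAT, against 37.4% of all promoters, and 27 of 37 (73%) held TTTGAA, against 17.9%.

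Genes of protein synthesis and of the response to amino acid shortage lay high on arrays 2 and 5. Of 29 genes of translation and ribosome biogenesis, 27 lay above every control on array 2 and 24 on array 5, 12 did on array 3, 7 on array 4 and 0 on array 1. Sars, the seryl-tRNA synthetase, lay at 9.06, 11.78, 9.96, 9.12 and 11.52 on tumor arrays 1 to 5, against 8.54 to 9.70 (median 9.02) on the controls. Eif4ebp1, the brake on cap-dependent translation that Mtor releases, lay at 11.07, 12.67, 11.31, 10.71 and 12.60 on tumor arrays 1 to 5, against 9.76 to 11.20 (median 10.97) on the controls. Of the list, 10 of 29 had a higher mean at an unadjusted p under 0.05 (median 0.59), and 0 without arrays 2 and 5 (median 0.14). Trib3, a pseudokinase switched on under amino acid and endoplasmic reticulum stress, lay at 8.34, 13.47, 9.44, 7.38 and 12.19 on tumor arrays 1 to 5, against 6.96 to 8.77 (median 8.02) on the controls. Phgdh, the first enzyme of serine synthesis, lay at 8.66, 11.95, 9.72, 7.78 and 11.89 on tumor arrays 1 to 5, against 6.53 to 8.76 (median 8.26) on the controls. Slc7a11, the cystine importer, lay at 5.22, 11.19, 5.41, 7.64 and 8.61 on tumor arrays 1 to 5, against 4.66 to 7.03 (median 5.32) on the controls. Array 2 was the highest of the 12 arrays for all 3 genes, with array 5 second, and for Slc7a11 array 4 was also above every control. Shmt2, the mitochondrial enzyme of one-carbon supply, differed by 1.53 (SE 0.53) with all arrays and 0.40 (SE 0.51) without arrays 2 and 5. The 23 genes of this response had 9 higher at an unadjusted p under 0.05 (median 0.72) and 0 without arrays 2 and 5 (median 0.14).

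Psmd8, a lid subunit of the proteasome, lay at 11.42, 12.72, 12.14, 11.76 and 12.61 on tumor arrays 1 to 5, against 11.13 to 11.78 (median 11.54) on the controls. Psmd14, the deubiquitinase of the lid, lay at 8.76, 10.67, 8.93, 10.09 and 10.76 on tumor arrays 1 to 5, against 8.67 to 9.71 (median 8.79) on the controls. Of 28 proteasome genes, 7 had a higher mean at an unadjusted p under 0.05 (median 0.29), beside 8.28% of all genes, and 1 without arrays 2 and 5 (median 0.13). Hspa1a, an inducible Hsp70, lay at 9.81, 4.43, 8.28, 10.60 and 4.51 on tumor arrays 1 to 5, against 9.06 to 11.34 (median 10.21) on the controls. Hspb8, a small heat shock protein of muscle and skin, lay at 11.97, 8.09, 10.69, 12.79 and 8.47 on tumor arrays 1 to 5, against 11.40 to 13.18 (median 12.51) on the controls. Among 27 chaperones 4 had a higher and 5 a lower mean at an unadjusted p under 0.05 with all arrays, beside 8.28% and 16.8% of all genes, and 0 in either direction without arrays 2 and 5.

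Genes of cholesterol synthesis and of glycolysis and hypoxia differed in level between arrays 2 and 5. For 15 genes of cholesterol synthesis, the median distance to the controls was -1.25 on array 2, with 10 below every control, and 0.31 on array 5, with 7 above every control, beside 33.8% of all genes below on array 2 and 38.4% above on array 5. Hsd17b7, an enzyme of the pathway, lay at 11.01, 8.83, 10.76, 10.95 and 10.35 on tumor arrays 1 to 5, against 10.10 to 11.43 (median 11.29) on the controls. Insig1, the sterol sensor partner that holds the pathway back, lay at 8.82, 7.60, 8.69, 8.70 and 9.97 on tumor arrays 1 to 5, against 7.51 to 8.81 (median 8.17) on the controls. For 30 genes of glycolysis and hypoxia the distances were -0.17 and 0.69 on arrays 2 and 5. Of these, 17 lay above every control on array 5 and 5 on array 2, beside 38.4% and 37.7% of all genes. Eno2, an enolase of nerve and tumor cells, lay at 8.15, 10.66, 8.75, 6.87 and 9.01 on tumor arrays 1 to 5, against 6.62 to 8.00 (median 7.89) on the controls, and array 2 was the highest. Oxidative phosphorylation had 38 of 51 genes above every control on array 5 and 20 on array 2, beside 38.4% and 37.7% of all genes. The count on array 2 was near the share of all genes, and the median distances were 0.58 on array 5 and 0.36 on array 2. Cox8b, a muscle form of a cytochrome oxidase subunit, lay at 10.69, 5.43, 8.45, 10.21 and 5.29 on tumor arrays 1 to 5, against 8.70 to 12.52 (median 10.75) on the controls. These differences between 2 arrays have no replicate check.

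Krt8, a keratin of simple epithelium, and Csn3, a milk casein, varied within the control group itself. Krt8 lay at 9.82, 5.90, 9.22, 8.27 and 4.74 on tumor arrays 1 to 5, against 5.25 to 10.38 (median 8.99) on the controls. Csn3 lay at 8.79, 5.41, 6.89, 7.00 and 4.56 on tumor arrays 1 to 5, against 4.48 to 8.95 (median 6.93) on the controls. The 16 gland genes had a median of -0.67 with all arrays and 0.53 without arrays 2 and 5.

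**Figure D4:**
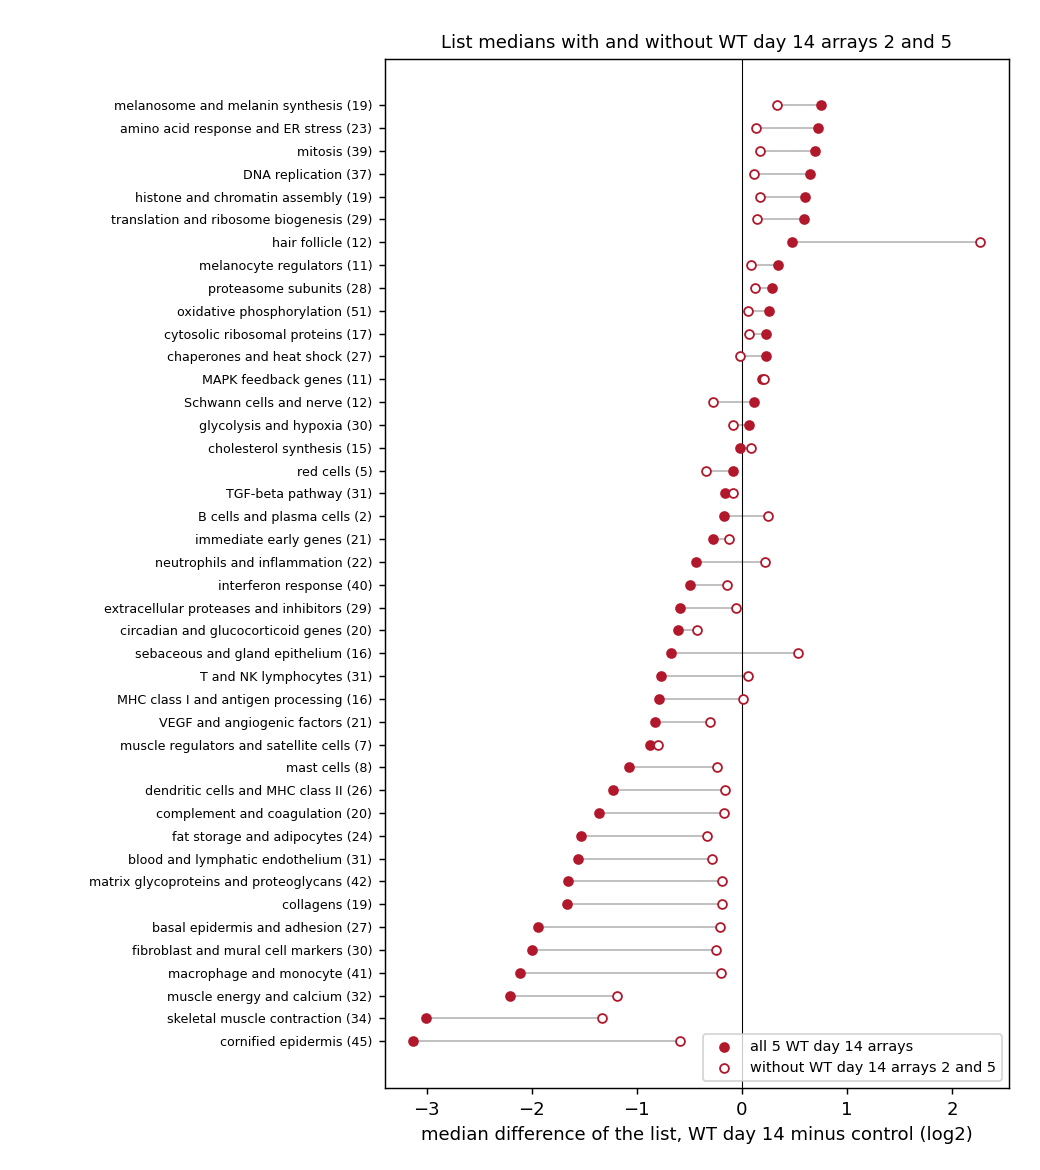
Median fitted difference, WT day 14 minus control (x axis, log2), of 42 gene lists (rows, number of measured genes in brackets) with all 5 WT day 14 arrays (filled) and without arrays 2 and 5 (open). Most medians lie closer to 0 without the 2 arrays, the hair follicle list has 2.27 without them and 0.48 with all arrays, and muscle contraction and muscle energy stay below -1.

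Few genes had all 5 tumor arrays on one side of all 7 controls. There were 9 above (0.091%) and 8 below (0.0809%). Snrpd3, a core protein of the spliceosome, lay at 11.15, 12.18, 11, 11.52 and 12.28 on tumor arrays 1 to 5, against 9.98 to 11 (median 10.74) on the controls, with the gap to the highest control smaller than the rounding. Sgta, a chaperone of membrane proteins, lay at 7.14, 8.24, 8.21, 7.33 and 8.24 on tumor arrays 1 to 5, against 6.55 to 7.10 (median 6.83) on the controls. Rnd2 lay at 7.30, 7.54, 8.93, 7.48 and 9.13 on tumor arrays 1 to 5, against 5.74 to 7.16 (median 6.5) on the controls. Ddit4, an inhibitor of Mtor under stress, lay at 9.37, 11.14, 10.33, 9.73 and 10.91 on tumor arrays 1 to 5, against 8.50 to 9.36 (median 9.20) on the controls, with array 1 just above the highest control. For all 4 genes array 1 or array 3 stood closest to the controls, and arrays 2 and 5 were among the farthest except for Rnd2 on array 2. The other 5 above were Plppr2, with a difference of 1.03 (SE 0.34), Klf16, a zinc finger factor, with 0.74 (SE 0.28), Rprd2, which binds RNA polymerase II, with 0.60 (SE 0.24), Adprhl2, which removes ADP-ribose, with 0.79 (SE 0.32), and Bend3, a chromatin repressor, with 0.71 (SE 0.30).

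The 8 genes below every control had small gaps as well. Stx12, a syntaxin of endosomes, lay at 9.88, 9.04, 9.71, 9.86 and 9.71 on tumor arrays 1 to 5, against 10.06 to 10.47 (median 10.20) on the controls. Snx27, a sorting nexin that returns receptors to the surface, lay at 10.30, 10.07, 10.23, 9.76 and 10.07 on tumor arrays 1 to 5, against 10.36 to 10.53 (median 10.44) on the controls. Uso1, a tether of vesicles at the Golgi, lay at 9.09, 9.06, 8.44, 8.77 and 8.54 on tumor arrays 1 to 5, against 9.19 to 9.45 (median 9.30) on the controls. Vcp, the ATPase that pulls proteins out of membranes for degradation, lay at 12.81, 12.51, 12.98, 12.84 and 12.96 on tumor arrays 1 to 5, against 13.04 to 13.32 (median 13.10) on the controls. Array 1 was the nearest to the controls for Stx12, Snx27 and Uso1, and array 3 for Vcp. Of the probes not used, 1 of 4 of Snx27 and 1 of 2 of Snx13 had a difference of the other sign. Pitpna, a phosphatidylinositol carrier, differed by -0.79 (SE 0.23), Rilp, a lysosome adaptor, by -1.03 (SE 0.32), Snx13, another sorting nexin, by -0.70 (SE 0.24), and Suox, the sulfite oxidase, by -0.83 (SE 0.28). Suox was detected on 2 of 5 tumor arrays and 7 of 7 controls. After median scaling in place of quantile normalization 9 genes had no overlap, and the difference of Vcp had the other sign, at 0.1047. No gene of the 17 passed the adjusted test, where the smallest adjusted p was 0.143.

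**Figure D5:**
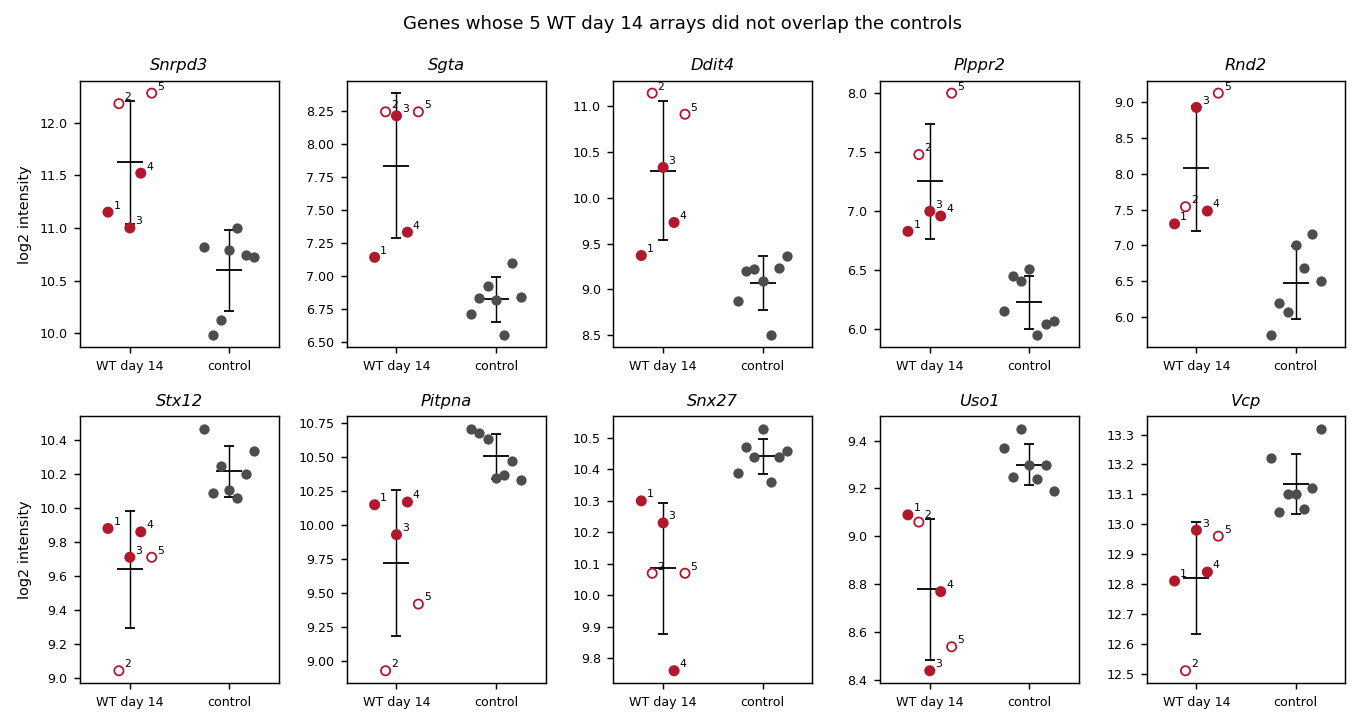
Log2 intensity (y axis, scale differs by panel) of 10 of the 17 genes whose 5 WT day 14 arrays (red, numbered; open circles are arrays 2 and 5) did not overlap the 7 control arrays (gray); bars are the mean and SD. The 5 genes of the upper row are higher and the 5 of the lower row lower on the WT day 14 arrays.

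Without arrays 2 and 5, 17 genes had the 3 tumor arrays above all 7 controls (0.172%) and 33 had them below (0.334%), with a smallest adjusted p of 1. Mtor, the growth kinase, had 9.26, 9.03, 9.36, 9.70 and 8.69 on tumor arrays 1 to 5, against 8.96 to 9.19 (median 9.14) on the controls. Its difference was 0.33 (SE 0.15) without arrays 2 and 5, and 0.10 (SE 0.14) with them, since array 5 was below every control and array 2 inside the range. Psenen, a subunit of gamma-secretase, differed by 0.42 (SE 0.21) without the 2 arrays and 0.40 (SE 0.18) with them. Izumo4 and Tcp11, both known from sperm, differed by 0.63 (SE 0.30) and 0.39 (SE 0.22) without the 2 arrays and by -0.05 (SE 0.31) and 0.14 (SE 0.20) with them. The other probe of Izumo4 had 0.33 with all arrays, and Tcp11 was detected on 3 of 5 tumor arrays and 3 of 7 controls. Rprd2, Rnd2, Sgta, Klf16, Snrpd3 and Plppr2 of the genes above were among the 10 of smallest p in that direction, and both comparisons share arrays.

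Some genes below the controls on arrays 1, 3 and 4 were above them on arrays 2 and 5. Parp16, an ADP-ribosyl transferase of the endoplasmic reticulum, lay at 6.26, 8.10, 6.34, 6.11 and 7.58 on tumor arrays 1 to 5, against 6.59 to 7.12 (median 6.80) on the controls. Ikbkg, the regulatory subunit of the kinase that frees NF-kappaB, lay at 8.86, 9.64, 8.66, 8.83 and 9.68 on tumor arrays 1 to 5, against 8.99 to 9.28 (median 9.24) on the controls. Nfyb, a subunit of the factor that binds CCAAT, lay at 8.66, 9.59, 8.51, 8.61 and 9.26 on tumor arrays 1 to 5, against 8.72 to 9.30 (median 9.12) on the controls; array 5 of that gene was inside the control range. Ahcyl2 differed by -0.56 (SE 0.24) without the 2 arrays, Arf2, a GTPase of the Golgi, by -0.51 (SE 0.22), and Vps41, a tether of the lysosome, by -0.51 (SE 0.24). Parp16 and Ikbkg had small differences with all arrays, 0.07 (SE 0.28) and -0.03 (SE 0.17).

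Against the other day 14 tumors, 1 gene of 9890 (0.0101%) separated the wild-type line. This was Xkr7, of the family of scramblase-like membrane proteins, and it was chosen after its values were seen. It lay at 5.35, 6.28, 5.79, 5.78 and 6.83 on tumor arrays 1 to 5, against 4.67 to 5.19 (median 4.88) on 5 arrays of B16-shTGFb and 4.45 to 5.16 (median 4.97) on 6 arrays of B16-shVEGF at day 14, and 5.13 to 5.64 (median 5.22) on the controls. The difference of wild-type day 14 from the mean of the 2 hairpin groups was 1.098 (SE 0.195, limma adjusted p = 0.0267). All 5 wild-type arrays were above all 11 arrays of the other lines. All levels of this gene were low, and those of the other lines were near the floor. Without arrays 2 and 5 the difference was 0.73, and 0 genes were called (0%), with a smallest adjusted p of 1. The call was also lost with no background correction, an offset of 50, median scaling, array weights, a replicate block, a fit of only the arrays compared, and in the deposited normalized table. The number of calls in this comparison was 1552 with wild-type array 1 left out and 1879 with array 4 left out. It was 0 with wild-type array 2 or 5 alone left out. It was also 0 with day 14 array 1, 2, 3 or 4 of B16-shTGFb, or array 4 of B16-shVEGF, left out.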

How the data were processed

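RNA of 38 mouse samples was measured on Illumina bead arrays. The deposited intensity table holds linear signals of 45272 probes that the authors exported without normalization, with BeadStudio named in the submitters' processing notes, and its detection p-values come from the same deposited table. The authors' normalized log2 table, deposited for 16247 probes, differed by at most 5e-14 from log2 values of the quantile-normalized signals without background correction. Tool versions are not given in the sources used here. From the intensities, background was corrected with normexp and detection p-values (offset 16), all arrays were quantile-normalized and log2 was taken (limma 3.58.1, R 4.3.3). Of the 16247 probes, 14836 had 1 gene symbol in the platform annotation, 5 several and 1406 none, and 14830 matched RefSeq. Probes with a detection p under 0.05 on fewer than 4 arrays were to be dropped, which removed 0 genes, and the brightest probe stood for a gene, giving 9890 genes, of which 3486 had more than 1 probe. Group means of all 7 groups were fitted as a linear model over all 38 arrays, or 36 without wild-type day 14 arrays 2 and 5, with Benjamini-Hochberg adjustment and a threshold of 0.05. The fit was tested on simulated data. The arrays' number limits the precision.

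Genes were named by a rule: Tgfb1 and Vegfa, genes whose groups do not overlap (up to 10 in each direction by p), up to 4 genes of smallest p in each described list, and cell type markers. Xkr7 falls outside it. The members, the 42 lists and the 2 arrays left out were chosen with earlier results of these data known. Alternatives covered background, scaling, filters, probe choice, array weights, a replicate block and single arrays left out. Same-numbered arrays of both groups had correlations of deviations from -0.424 to 0.372, so the numbers were not used to pair samples. Arrays far from their group weigh heavily in these correlations, which cannot exclude a shared batch or handling.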

Additional observations from a re-analysis of the deposited data

Results flagged for a closer look

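Dixon's gap criterion, which was set for groups of 4 to 10 arrays, was applied to genes and list means within the tumor and the control group. It set 1 array apart in 30 of 328 tests, where chance sets apart about 1 in 20 if tests are independent. These tests reuse the same arrays and many of the genes vary together, so the count does not show an excess over chance. No explanation was tested.

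Wild-type day 14 array 4 was low in pigment genes, with Mlana at 10.58 (other tumor arrays 13.24 to 14.31), Dct at 12.84 (13.94 to 14.37) and Sox10 at 8.72 (11.92 to 13.09). Array 2 was low in Stx12, at 9.04 (9.71 to 9.88). Array 5 was high in Ahcyl2, at 8.86 (8.23 to 8.37). Array 1 had the highest mean of muscle regulators, 7.81 (6.41 to 6.57).

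Control array 1 was low in Mlana at 4.63 (other controls 11.5 to 14.5), Dct at 8.22 (13.72 to 14.53), Tyrp1 at 5.33 (11.43 to 13.41), Pmel at 5.49 (10.76 to 14.3) and Sox10 at 7.64 (10.86 to 12.64). Control array 6 was high in Krt71 at 14.35 (4.39 to 7.92), Padi1 at 11.01 (4.47 to 5.91) and the mean of hair follicle genes at 10.79 (6 to 7.46). It was low in Dcn at 13.1, Loxl1 at 10.82, Acta1 at 13.09, Myl1 at 13.31, Lpl at 11.81, Pparg at 8.65, Adipoq at 9.08 and Il1r2 at 7.47. Its list means were low for fat at 8.87 (10.36 to 10.94), matrix glycoproteins at 9.42 (10.23 to 10.75), fibroblasts at 8.65 (9.6 to 10.32) and circadian genes at 8.53 (9.3 to 9.84). Control array 5 was low in Hsd17b7 at 10.1 (10.92 to 11.43) and in the mean of cholesterol synthesis at 9.08 (9.64 to 10.01). It was high in Rilp at 9.08 (7.86 to 8.33) and in the mean of muscle regulators at 9.07 (6.95 to 7.79).

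Xkr7 differed by 1.0979 at day 14 between the wild-type line and the mean of both hairpin lines (limma adjusted p = 0.0267). All 5 wild-type arrays were above all arrays of the other lines, which were near the floor. The call was lost under several settings and when any of several single arrays was left out.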

How the results depend on the processing

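The count of 0 called genes held under every setting run on all 5 wild-type day 14 arrays (background, offset, scaling, the deposited normalized table, filters, array weights, probe choice, replicate block, every detected probe) and without arrays 2 and 5. With 1 array left out it ranged from 0 to 1443, with 1443 without tumor array 1 and 1284 without tumor array 4; the cause was not tested. The 2484 genes at an unadjusted p under 0.05 were 830 with array weights, 71 without arrays 2 and 5, 1861 with a replicate block, and 722 to 3703 with 1 array left out (753 without array 2, 722 without array 5). The 17 genes without overlap were 9 after median scaling, 50 without arrays 2 and 5, and 17 to 262 with 1 array left out (262 without tumor array 1, 104 without control array 6, 87 without tumor array 4). Against the hairpin lines, 1 call became 0 with no background correction, offset 50, median scaling, the deposited table, only the arrays compared, array weights, the replicate block, and without arrays 2 and 5. It became 399 without array 4 of the wild-type day 4 group, and ranged from 0 to 1879 with 1 array left out.

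The sign of the difference turned for Tgfb1 (-0.0977) and Vcp (0.1047) under median scaling, for Vegfa (-0.2313), Krt8 (0.1951) and Csn3 (0.2106) with array weights, and for Tgfb1 (-0.0109) with the replicate block. Without arrays 2 and 5 it turned for Vegfa (-0.3125), Tyr (-0.1895), Gata3 (0.0242), Krt8 (0.6999) and Csn3 (0.7198). With 1 array left out, differences ranged from -0.8783 to 0.1805 for Csn3, -0.2836 to 0.8401 for Dct, -0.2939 to 0.1837 for Tgfb1, -0.0978 to 1.5623 for Tyrp1 and -0.0972 to 0.4387 for Vegfa. Izumo4 (-0.05 with all arrays, 0.63 without arrays 2 and 5) and Parp16 (0.07 and -0.57) also turned between the 2 fits. The count that follows did not compare these genes between the fits. Counted over genes and settings, the other values of named genes kept their direction. Of them, 2735 were on the same side of the threshold, 153 newly past it and 16 no longer past it. Only Xkr7 was past the threshold in the main fits, so all 16 are settings in which Xkr7 lost its call. The number of lists with a negative median was 27 of 42 with all arrays and 24 without arrays 2 and 5. No array number of the tumors correlated best with its own control number, which cannot exclude a shared batch or handling. Slide as a block was not run, since the columns name no slide. On arrays 2 and 5 many host genes lie at background, where the offset sets the size of a difference.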

Other observations

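Lists not described above had these median differences with all arrays and without wild-type day 14 arrays 2 and 5, beside 0.04 and -0.04 over all genes. Complement and coagulation genes (20) had -1.36 and -0.17, and extracellular proteases and inhibitors (29) had -0.58 and -0.05. Circadian and glucocorticoid genes (20), which follow the hour of sampling and stress hormones, had -0.61 and -0.43, with 8 lower and 1 higher at an unadjusted p under 0.05 with all arrays and 0 in either direction without the 2 arrays. Immediate early genes (21), which rise within minutes of handling, had -0.27 and -0.12. Histone and chromatin genes (19) had 0.60 and 0.18, and cytosolic ribosomal proteins (17) had 0.23 and 0.07. MAPK feedback genes (11) had 0.19 and 0.21, and melanocyte regulators (11) had 0.35 and 0.08. Schwann cell and nerve genes (12) had 0.12 and -0.27, muscle regulators (7) had -0.87 and -0.80, red cell genes (5) had -0.09 and -0.35, and B and plasma cell genes (2) had -0.17 and 0.25.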
